A study of Bos taurus with 6 samples.

Results

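bta-miR-221 and bta-miR-222 are 2 of the 512 miRNAs listed for each of the extracellular vesicle (EV) libraries. They were chosen by identifier because their genes lie side by side, a rule that uses no measured value but was set with earlier results of these data known. The EVs came from bovine granulosa cells, the cells that surround and support the oocyte, aspirated from small antral follicles of slaughterhouse ovaries and cultured with 10% exosome-depleted serum. In 3 libraries the cells had stayed at 37 °C (control-EVs), and in 3 they had spent 24 h at 42 °C (HS-EVs, from heat stressed cells). All libraries share the species, the follicle stage, the medium and the EV isolation by precipitation; the breed and age of the animals are not stated. The submitters call the 3 libraries of a group biological replicates, without saying whether they came from separate cultures or animals, so that the p-values measure the spread between these libraries.

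miR-221 and miR-222 are cut from a common primary transcript of an X-linked locus in mammals and share their seed, the short stretch near the 5′ end that pairs with target mRNAs. Among their best known targets are CDKN1B (p27) and CDKN1C (p57), inhibitors that hold back the cell cycle, and KIT, the receptor of the KIT ligand that granulosa cells make. In the RefSeq annotation of the assembly ARS-UCD2.0, which is not the assembly the authors used, both identifiers matched a gene. MIR222 and MIR221 are direct neighbours there, with the long non-coding RNA genes LOC132344329 and LOC132344330 on either side.

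The authors deposited read counts after scaling by TMM (trimmed mean of M-values), called normalized counts here. Within a library all values came in whole steps of 1 size, and that step was taken as 1 read. The recovered reads numbered 274434 to 2360980 per library, but bta-miR-1246 alone took 59.9% to 98.6% of them. The reads left for all other miRNAs, 34141 to 235634, set the precision for bta-miR-221 and bta-miR-222. In every library the recovered reads outnumbered those that the study lists as mapped to annotated miRNAs, so that what a step stands for is not settled, and the read numbers and counting intervals given here rest on that step being 1 read. HS-EVs replicate 1 stood apart, with the most reads in total and the fewest on other miRNAs, and each of its reads counted as 4.11 normalized counts against 0.697 to 1.98 elsewhere.

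bta-miR-221 was among the abundant miRNAs of these EVs. Its normalized counts were 3032, 1966 and 1759 in control-EVs replicates 1, 2 and 3, and 2174, 2898 and 4740 in HS-EVs replicates 1, 2 and 3. HS-EVs replicate 3 lay above all other libraries, while HS-EVs replicates 1 and 2 lay within the range of the control-EVs. These values stood for 1652, 2820 and 890 reads in control-EVs and for 529, 2635 and 2908 reads in HS-EVs. Among all miRNAs of a library it held rank 14, 16 and 18 in control-EVs and rank 15, 14 and 10 in HS-EVs.

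bta-miR-222 was the minor member of the pair in every library. Its normalized counts were 143.2, 115.1 and 144.2 in control-EVs replicates 1, 2 and 3, and 90.4, 133.1 and 223.3 in HS-EVs replicates 1, 2 and 3. The HS-EVs libraries held both the lowest and the highest value, so that the control-EVs lay inside their range. The reads were 78, 165 and 73 in control-EVs and 22, 121 and 137 in HS-EVs. The 22 reads of HS-EVs replicate 1 have an exact Poisson interval (95%) of 13.8 to 33.3, the widest in proportion of the 6. Its rank among the miRNAs of a library lay between 69 and 90.

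**Figure D1:**
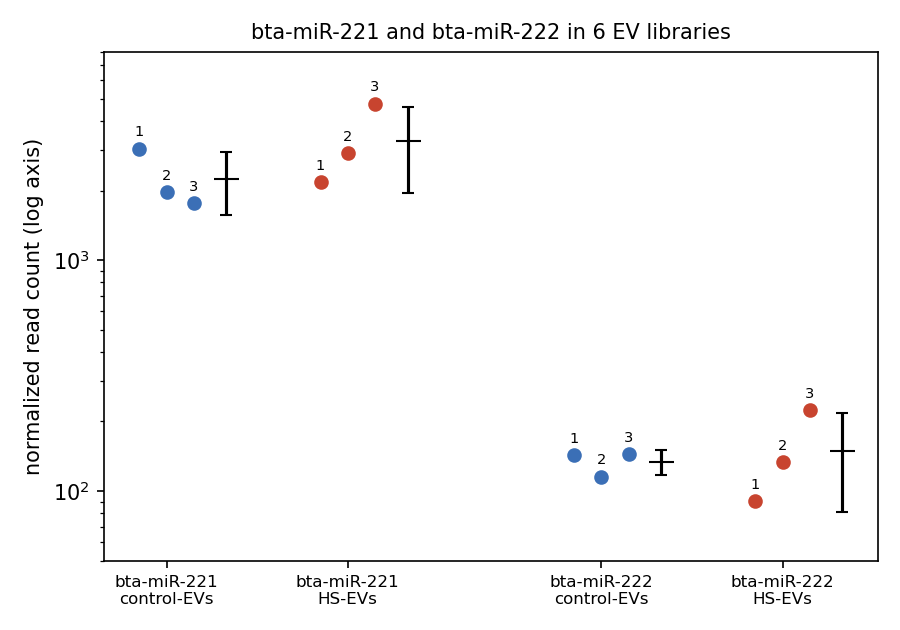
Normalized read counts (log axis) of bta-miR-221 and bta-miR-222 in control-EVs (blue) and HS-EVs (red), one point per library with its replicate number, and the mean ± SD of each group in black. bta-miR-221 sits between 1759 and 4740 and bta-miR-222 between 90.4 and 223.3, and for both the 2 groups overlap.

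Expressed as a share of a library's reads without those of bta-miR-1246, bta-miR-221 made up 2.16%, 1.20% and 1.21% in control-EVs and 1.55%, 2.13% and 3.35% in HS-EVs (replicates 1, 2 and 3). The Wilson interval (95%) of the smallest share was 1.15% to 1.24% and that of the largest 3.24% to 3.48%, and these intervals cover counting error only. bta-miR-222 made up 0.102%, 0.0700% and 0.0992% in control-EVs and 0.0644%, 0.0980% and 0.158% in HS-EVs. Within each group, the counting intervals of the lowest and the highest bta-miR-221 library did not overlap, and the shares of the 2 groups overlapped for both miRNAs. As a share of all reads, bta-miR-221 fell between 0.324% and 0.521% in 5 libraries and was 0.0224% in HS-EVs replicate 1, where bta-miR-1246 took 98.6% of the reads.

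Whether the EV levels of the pair changed with temperature was tested by limma, HS-EVs against control-EVs, on log2(normalized count + 1), fitted over all 512 miRNAs. bta-miR-221 averaged 2252 ± 683 normalized counts in control-EVs and 3271 ± 1323 in HS-EVs (SD, n = 3 each). The log2 fold change of bta-miR-221 was 0.50 with a standard error of 0.49 and a 95% interval of -0.59 to 1.59 (limma, adjusted p = 0.873). bta-miR-222 averaged 134.2 ± 16.6 and 148.9 ± 67.9 normalized counts, respectively (SD, n = 3 each). For bta-miR-222 the log2 fold change was 0.06 with a standard error of 0.48 and a 95% interval of -1.02 to 1.14 (limma, adjusted p = 0.974). Neither difference passed the test, and both intervals include 0. The intervals correspond to 0.666-fold to 3.02-fold for bta-miR-221 and to 0.494-fold to 2.198-fold for bta-miR-222. In this fit a rise of 2-fold in HS-EVs could thus not be told from no change in either miRNA. For bta-miR-222 this depended on the setting. The upper end of its log2 interval ranged from 0.46 without HS-EVs replicate 3 to 1.38 without HS-EVs replicate 2 (limma).

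At the threshold of the study for EVs (adjusted p-value of 0.3 or less and absolute log2 fold change of 1 or more), limma called 0% of the 512 miRNAs and neither of the pair. Before adjustment, limma's p-value was at most 0.05 in 25 of the 512 miRNAs. Neither bta-miR-221 (0.327) nor bta-miR-222 (0.905) was among them. On the recovered reads, edgeR's quasi-likelihood test called 3 of the 512 miRNAs (0.586%) and DESeq2 called 0 (0%), and neither test called bta-miR-221 or bta-miR-222. The groups did not overlap in 6.45% of the 512 miRNAs, whereas they overlapped in both members of the pair. The direction depended on the scaling in 1 of 3 other scalings: with all reads of a library as the scale, the log2 fold changes were -1.03 for bta-miR-221 and -1.40 for bta-miR-222, but the median of the 512 miRNAs was then -0.69. With DESeq2 size factors they were 0.46 and 0.01, and with the reads other than bta-miR-1246 as the scale 0.61 and 0.16. Without HS-EVs replicate 3, the log2 fold change was 0.20 for bta-miR-221 and -0.28 for bta-miR-222. Without HS-EVs replicate 1, they were 0.76 and 0.37. Equal amounts of RNA were put into the libraries, so that these values are relative to the other miRNAs of a library. They do not show how many vesicles, or how much of a miRNA in total, the cells released. The paper counted the vesicles separately and reported more of them from heat stressed cells.

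**Figure D2:**
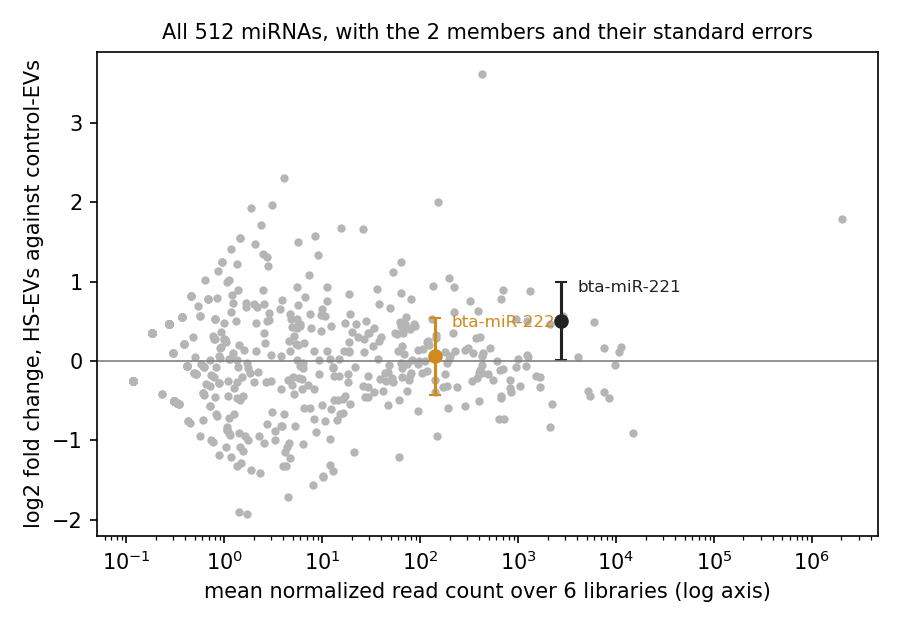
Log2 fold change of HS-EVs against control-EVs (limma) for all 512 miRNAs against their mean normalized read count over 6 libraries (log axis), with standard error bars on the 2 miRNAs described here. bta-miR-221 (0.50) and bta-miR-222 (0.06) lie within the cloud of miRNAs of their abundance.

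**Figure D3:**
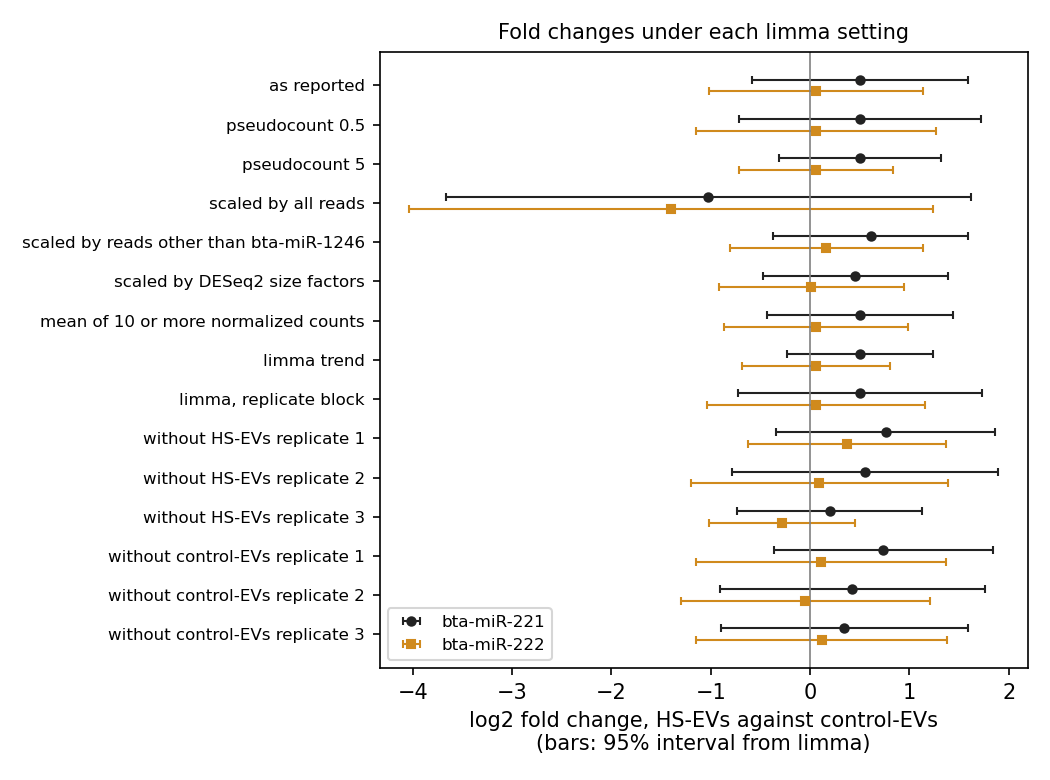
Log2 fold change of bta-miR-221 (black circles) and bta-miR-222 (orange squares) with its 95% interval from limma, as reported and under each other limma setting. Every interval includes 0, and both values are negative on reads scaled by all reads (-1.03 and -1.40).

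The ratio of the 2 miRNAs within a library does not depend on the scaling between libraries. It was 21.2, 17.1 and 12.2 reads of bta-miR-221 per read of bta-miR-222 in control-EVs replicates 1, 2 and 3, and 24.0, 21.8 and 21.2 in HS-EVs replicates 1, 2 and 3. bta-miR-221 was thus the more abundant by over 10-fold in all 6 libraries, and the ratio was lowest in control-EVs replicates 2 and 3. The ratio is one of reads, and it was not calibrated against known amounts of both RNAs.

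**Figure D4:**
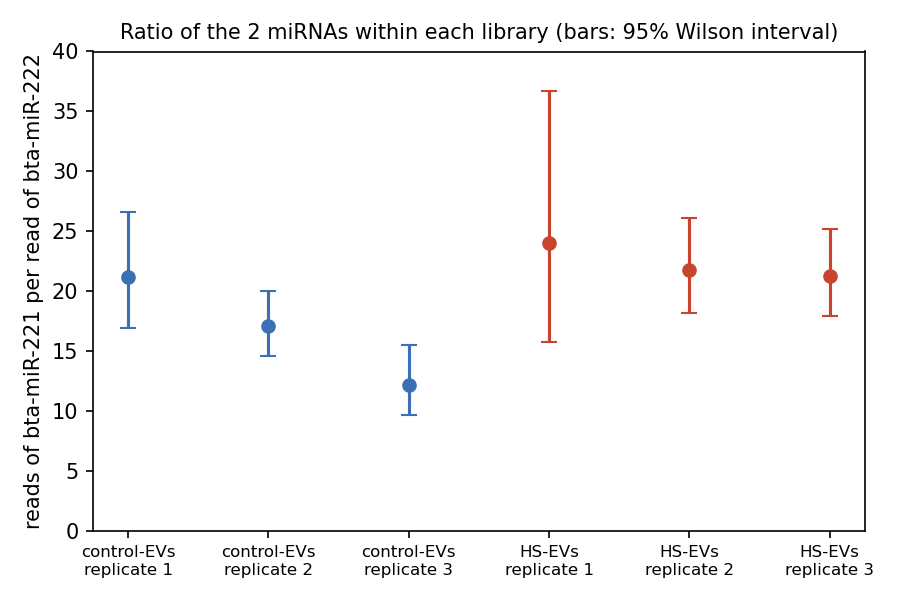
Reads of bta-miR-221 per read of bta-miR-222 in each library, with 95% Wilson intervals for counting error. Control-EVs range from 12.2 to 21.2 and HS-EVs from 21.2 to 24.0, and the interval of control-EVs replicate 3 (9.61 to 15.5) lies below those of the 3 HS-EVs libraries.

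On the log2 scale the ratio averaged 4.04 ± 0.40 in control-EVs and 4.48 ± 0.10 in HS-EVs (SD, n = 3 each), and the means differed by 0.44. Each of the 3 HS-EVs libraries had a higher ratio than each of the control-EVs. In an exact two-sided permutation test p was 0.1, which is the lowest value possible with 3 libraries against 3, so that this design cannot reach 0.05. The margin was narrow, with 4.41 in HS-EVs replicate 3 against 4.40 in control-EVs replicate 1, and the counting intervals of these libraries (17.9 to 25.2 and 16.9 to 26.6 on the ratio) overlapped nearly in full. Control-EVs replicate 3 contributed most: without it the difference was 0.23, and without control-EVs replicate 1 it was 0.63. With the reads of each group summed before the division, 5362 reads of bta-miR-221 stood against 316 of bta-miR-222 in control-EVs and 6072 against 280 in HS-EVs, a ratio of 16.97 and 21.69.

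The spread of this ratio was set beside that of other miRNA pairs that also derive from one cluster, taken from a list of 20 such pairs. In 8 of these pairs both miRNAs had 10 or more reads in every library, while 11 had fewer and 1 was not listed in the tables. Over the 6 libraries the log2 ratio of bta-miR-221 to bta-miR-222 had an SD of 0.36, against a median SD of 0.42 for the 8 pairs. The lowest was 0.26 for bta-miR-25 to bta-miR-93 and the highest 1.10 for bta-miR-23b-3p to bta-miR-27b, and 2 of the 8 pairs had a lower SD than the miR-221 and miR-222 pair. Counting error alone gave bta-miR-221 to bta-miR-222 a standard error of up to 0.31 in a library (HS-EVs replicate 1), with a root mean square of 0.18 over the 6. The log2 ratio did not overlap between the groups in 0% of the 8 pairs, and in 3 of them the means of the groups differed by more than 0.44.

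**Figure D5:**
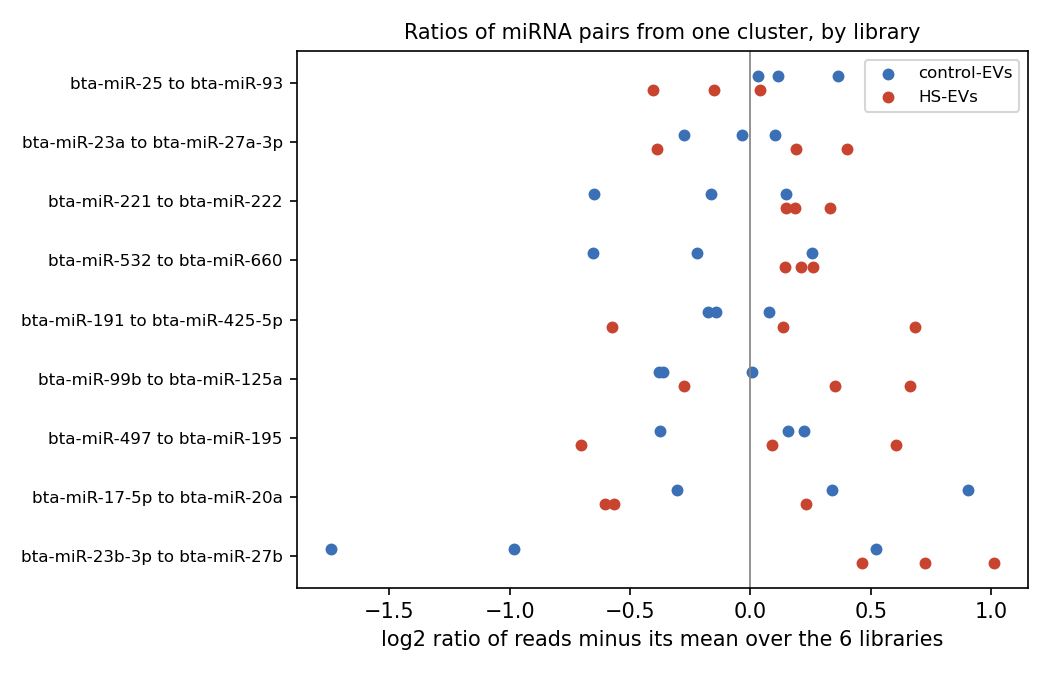
Log2 ratio of reads within pairs of miRNAs from one cluster, minus its mean over the 6 libraries, for control-EVs (blue) and HS-EVs (red), ordered from the lowest SD at the top. For bta-miR-221 to bta-miR-222 (SD 0.36) the 3 HS-EVs points lie at or to the right of the highest control-EVs point, and the widest spread is that of bta-miR-23b-3p to bta-miR-27b (SD 1.10).

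In the order of mean normalized counts over the 6 libraries, bta-miR-221 held place 14, at 2762 ± 1094 (SD, n = 6). Above it stood bta-miR-378 with 2891 ± 1613 (SD, n = 6), and below it bta-miR-25 with 2226 ± 766 (SD, n = 6). bta-miR-378 exceeded bta-miR-221 in 3 of the 6 libraries and bta-miR-25 did so in 2, so that these neighbours did not differ from it beyond their spread. bta-miR-222 held place 82, at 141.5 ± 44.9 (SD, n = 6), between bta-miR-193a-5p (142.2 ± 57.5, SD, n = 6) and bta-miR-19b (141.5 ± 37.2, SD, n = 6). These 3 means differed by far less than 1 SD. The distance between the 2 members of the pair, by contrast, exceeded their spread, since the lowest bta-miR-221 value (1759) lay above the highest bta-miR-222 value (223.3).

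Among the 130 miRNAs with 10 or more reads in every library, the SD of log2(normalized count + 1) over the 6 libraries had a median of 0.43. bta-miR-221 had an SD of 0.52, and 88 of the other 129 miRNAs varied less. bta-miR-222 had an SD of 0.43, with 66 varying less and 63 more. The levels of the pair across the libraries had a Pearson correlation of 0.74 with each other (n = 6, given as a description, since the 2 values of a library share its scaling). Out of 129 miRNAs, bta-miR-222 was in place 23 by its likeness to bta-miR-221, and bta-miR-221 in place 8 by its likeness to bta-miR-222.

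The miRNAs whose log2 levels followed bta-miR-221 most closely were bta-miR-191 (r = 0.95), bta-miR-210 (r = 0.95) and bta-miR-342 (r = 0.94), each over the same 6 libraries. For bta-miR-222 they were bta-miR-191 (r = 0.84), bta-let-7c (r = 0.83) and bta-miR-34a (r = 0.82). bta-miR-191 led both orders, with 296 to 616 normalized counts. bta-miR-210 ranged from 40.4 to 99.4 normalized counts, with 14 or more reads in each library.

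Other miRNAs known to act on the Cip/Kip inhibitors of the cell cycle, the group of CDKN1A (p21), p27 and p57, were examined beside the pair. The list held 10 miRNAs from the miR-17 and miR-25 seed families, of which 9 were in the tables. limma called 0 of the 9 higher and 0 lower in HS-EVs, as it called 0% of all 512. Without HS-EVs replicate 2 it called 1 of the 9, bta-miR-20b, among 3 of all 512 (0.586%), all 3 of them lower. The log2 fold changes lay below 0 in 9 of the 9, against 256 of all 512 miRNAs, although that of bta-miR-20a was -0.0037 with a higher mean in HS-EVs. Their median was -0.38, where the median of all 512 miRNAs was 0.01 and bta-miR-221 and bta-miR-222 had 0.50 and 0.06. The median of the 9 was -0.59 without HS-EVs replicate 2 and -0.21 without HS-EVs replicate 3, and with all reads as the scale it was -1.82, where that of the 512 was -0.69. Below 0 lay 8 of the 9 with reads scaled by those other than bta-miR-1246, in edgeR's test, and without HS-EVs replicate 1, HS-EVs replicate 3 or control-EVs replicate 3, and 7 of the 9 without control-EVs replicate 2.

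The abundant members of the list were bta-miR-92a, bta-miR-25, bta-miR-93 and bta-miR-20a. bta-miR-92a, of the miR-25 family, averaged 5871 ± 1077 normalized counts in control-EVs and 4584 ± 1258 in HS-EVs (SD, n = 3 each, as for the others). bta-miR-25, which is known to act on CDKN1C, averaged 2654 ± 844 and 1798 ± 455, respectively. bta-miR-93 and bta-miR-20a, which are known to act on CDKN1A, averaged 1810 ± 359 and 607 ± 134 in control-EVs. In HS-EVs they averaged 1576 ± 339 and 619 ± 210. The groups overlapped in each of these 4, and within a seed family reads of near-identical members could have been divided between them in the authors' counting. The groups did not overlap in bta-miR-20b, which had at most 2 reads in any library, as they did not in 6.45% of all 512 miRNAs.

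Of the miRNAs linked to granulosa cells, bta-miR-202 had 508 to 2818 reads, bta-miR-132 had 10 to 65 and bta-miR-503-5p had 2 to 30. bta-miR-212 and bta-miR-383 had at most 1 read in any library, so that these 2 markers were near 0. Markers of other cells were present as well. The 7 blood cell miRNAs all had reads in every library and together made up 0.516% to 1.15% of the reads other than bta-miR-1246 in control-EVs and 0.434% to 0.785% in HS-EVs. Within this list bta-miR-486 had the highest mean normalized counts, 786.9 ± 381.7 in control-EVs and 478.3 ± 243.8 in HS-EVs (SD, n = 3 each). The groups did not overlap in 1 of the 7, bta-miR-150, with 24.4 ± 5.73 and 48.0 ± 17.6 normalized counts, respectively, against 6.45% of all 512 miRNAs. The 2 arms of miR-126, enriched in endothelium, made up 0.0785% to 0.543% in control-EVs and 0.156% to 0.612% in HS-EVs. The 5 miRNAs of smooth muscle and stroma made up 0.846% to 1.02% in control-EVs and 0.819% to 0.952% in HS-EVs. bta-miR-122, a liver miRNA that also circulates in serum, made up 8.70% to 15.5% in control-EVs and 5.32% to 9.72% in HS-EVs. miR-221 and miR-222 are themselves known from endothelium and smooth muscle, and the part of these cells or of serum in their levels was not tested.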

How the data were processed

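Small RNA of 3 control-EVs and 3 HS-EVs libraries (QIAseq kit with unique molecular identifiers, UMIs) was read from 1 table per library. The authors trimmed reads with cutadapt (1.11), merged reads that carried 1 UMI, aligned them by Bowtie2 (2.2.2) to the bovine genome (UMD3.1) and to miRBase, and normalized by TMM in edgeR. The deposited normalized counts were treated as a signal. Per library, 100% of the values came out as whole multiples of the smallest value above 0 (tolerance 0.001), so that whole reads could be recovered. Should the smallest step stand for several reads, every read number of that library would be too small, and should it stand for part of a read, too large.

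Groups and replicate numbers came from the labels. Over all 512 miRNAs, log2(normalized count + 1) was tested with limma (3.58.1, R 4.3.3; lmFit and eBayes) without filter or block, with Benjamini-Hochberg adjustment. The log2 ratio of the reads of both miRNAs was compared by exact permutation over the 20 assignments of libraries to groups. Alternatives were other pseudocounts, scalings, a filter on the mean, edgeR's quasi-likelihood test (4.0.16) and DESeq2 (1.42.0) on recovered reads, limma's trend, the replicate number as a block and leaving out each library. The fits were first run on simulated reads with as many miRNAs raised as lowered. This was a check of the code and is no support for the results here. No 2 libraries were duplicates, as each of the 15 possible pairs gave a chi-square of 18.8 or more per degree of freedom.

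The members, lists and tests were chosen with earlier results of these data known. Named were both members, the 3 miRNAs of most similar pattern to each (Pearson, 10 or more reads in every library), their neighbours in the order of means, the cluster pairs with the lowest and highest spread and the 4 Cip/Kip list members with most reads. bta-miR-20b and the markers named singly were added after their values were seen.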

Additional observations from a re-analysis of the deposited data

How the results depend on the processing

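Neither miRNA passed the threshold under any of the 16 alternatives (adjusted p between 0.686 and 0.995 for bta-miR-221 and between 0.740 and 1 for bta-miR-222, from limma, edgeR or DESeq2). With all reads as the scale, both log2 fold changes turned to -1.03 and -1.40, and the median of the 512 miRNAs moved to -0.69; the cause was not tested. With each library left out, bta-miR-221 lay between 0.20 and 0.76 and bta-miR-222 between -0.28 (without HS-EVs replicate 3) and 0.37, with -0.05 without control-EVs replicate 2. The count of miRNAs past the threshold was 0 in limma's test and 1 with a pseudocount of 0.5, 3 with edgeR's quasi-likelihood test, 2 with limma's trend and 0 to 4 with a library left out; it was 2 without HS-EVs replicate 1, 3 without HS-EVs replicate 2 and 4 without control-EVs replicate 2. The difference in log2 ratio lay between 0.23 (without control-EVs replicate 3) and 0.63 with a library left out. In the exact two-sided permutation test p was 0.2 with any HS-EVs library left out. With any control-EVs library left out it was 0.1, the smallest possible in these tests. The difference kept its direction in each case. The difference was 0.44 with 0.5 reads added to each miRNA and 0.35 on summed reads. The replicate number was used as a block in a further fit: 0 miRNAs passed the threshold, the log2 fold changes of 0.50 and 0.06 had adjusted p-values of 0.835 and 0.968 from limma, and the ratio differed by 0.44 (exact sign-flip test over 3 pairs, two-sided, p = 0.25, the smallest possible). After removal of the group means, libraries with the same number had correlations of 0.14, 0.14 and 0.08 over the 512 miRNAs and of 0.23, 0.46 and 0.14 over those with 10 or more reads in every library, and over the 512 each library correlated best with its own number, a hint from the data and not from the design. Counting error in the log2 ratio (root mean square 0.18) was smaller than its SD of 0.36 between libraries.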
